A study of Rattus norvegicus with 6 samples.

Results

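Genes of glycolysis, of lactate and glucose transport and of pyruvate entry into mitochondria were followed in single cells of the rat cerebral hemisphere. The list held 38 genes of this pathway, of which 37 were among the 15227 genes of the files used here. Slc2a3 was not analysed here. The series compared 3 libraries of normal control rats (NC) with 3 libraries of rats with acute carbon monoxide poisoning (CO), all made by droplet sequencing (10x Genomics). Per the series description, rats of the CO group breathed the gas at 1000 ppm for 40 minutes and then at 3000 ppm for 20 minutes. Poisoning was taken as severe when consciousness was impaired and the blood held above 60% carboxyhemoglobin (hemoglobin with carbon monoxide bound). The description speaks of 3 rats per group. Age, sex, strain and the time between exposure and sampling were not given in the sources used here.

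Glycolysis splits glucose into pyruvate and yields ATP without oxygen. Glucose enters cells through facilitative transporters, hexokinases trap it as glucose 6-phosphate, phosphofructokinase commits it to the pathway, and lactate dehydrogenase turns pyruvate into lactate and back, so that monocarboxylate transporters can move lactate between cells. Pyruvate that is to be oxidised enters mitochondria through the pyruvate carrier and is converted to acetyl-CoA by the pyruvate dehydrogenase complex, which pyruvate dehydrogenase kinases switch off. In brain, astrocytes and the cells of the blood-brain barrier are known for high glucose uptake and glycolysis, and several of these genes are known targets of hypoxia-inducible factors.

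Cells were assigned to classes by marker genes, none of them among the 37 genes followed here. Of 42293 barcodes, 38027 passed the filters on UMIs (unique molecular identifiers, 1 per captured transcript) and genes, 26738 of these fell into a class, and 26372 lay in the 9 classes with enough cells in every library. The libraries held between 39494470 and 47322264 UMIs. The largest classes were microglia-like (5048 NC and 4759 CO cells), endothelial-like (3079 and 2232) and oligodendrocyte-like cells (3985 and 1455). Own markers were among the 10 leading genes of every class, but the leading genes of the neuroblast-like class also held 2 neuron markers, Gad1 and Gad2, and those of the ependymal-like class held Hcrt, a neuropeptide gene. Only 3 NC and 20 CO cells were neuron-like, so neurons were not compared. Within a group, the libraries were about as far apart as parts of 1 pool of cells, with an F ratio of spread between libraries to spread between cells, averaged over genes, of 0.938 to 1.10 over classes and groups. Each group was therefore counted as 1 sample (n = 1 per group), no p-value is given, and the values of the 3 libraries are shown to give their spread. Over the 15 pairs of libraries, 1 cell barcode was shared.

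Levels are CPM, the UMIs of a gene scaled to the UMI total of the class and corrected with TMM factors. A difference is the log2 ratio of CO over NC with its exact 95% interval, which covers counting error only and not differences between rats. A gene was measured in a class with at least 30 counts and a mean of at least 16 CPM over the groups, and it was called higher or lower where the groups were at least 1.5-fold apart and the interval left out a ratio of 1. By this rule 35 of the 37 genes were measured in at least 1 class. Eno2, the neuronal enolase, had 8 UMIs in all classes together. In neuroblast-like cells it had 0 UMIs in NC and 0 in CO, and the reason was not tested. Slc16a3, a lactate exporter of glycolytic cells, stayed under the minimum in every class. How the authors assigned reads shared with near-identical copies was not given in the sources used here, and this touches Gapdh, Tpi1, Pkm, Pgam1, Aldoa, Ldha, Eno1 and Pgk1, whose families hold pseudogenes.

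In control cells the genes were spread unevenly over the classes. Slc2a1, the glucose transporter of the blood-brain barrier, stood at 2713, 2695 and 2746 CPM in the 3 NC libraries of endothelial-like cells. Ependymal-like cells came next with 859, 775 and 594 CPM, a level 3.68-fold lower. Astrocyte-like cells held 273 CPM and macrophage-like cells, at 47.1 CPM, the lowest level. Slc16a1, which carries lactate, pyruvate and ketone bodies, was also highest in endothelial-like cells at 162, 175 and 177 CPM. Oligodendrocyte-like cells followed with 95.1, 85.8 and 87.3 CPM, and the ranges of both classes over the libraries did not overlap. Slc16a7, a transporter with high affinity for pyruvate and lactate, was highest in both phagocyte classes, with 97.6, 55.1 and 111 CPM in macrophage-like and 68.1, 79.8 and 68.9 CPM in microglia-like cells, so that the libraries of these classes overlapped.

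Hexokinases were uneven over the classes. Hk2, the hexokinase of insulin-sensitive and of proliferating tissues, stood at 464, 469 and 490.3 CPM in the NC libraries of microglia-like cells. Macrophage-like cells had 198, 142 and 166 CPM, 2.82-fold less, and choroid plexus-like cells only 3.90 CPM. Of the UMIs of Hk1 and Hk2 together, Hk2 held 96.9% (96.6 to 97.2) in NC and 96.5% (96.1 to 96.8) in CO in microglia-like cells. Hk1, the housekeeping hexokinase of brain, was highest in ependymal-like cells at 64.8, 124 and 59.7 CPM, above the 38.8, 28.9 and 48.4 CPM of astrocyte-like cells. Hk1 was lowest in macrophage-like cells at 9.05 CPM.

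Astrocyte-like cells held the highest NC level of 9 genes, more than any other class. Aldoc, the aldolase known as an astrocyte gene, reached 1677, 1518 and 1560.3 CPM in their libraries, 12.5-fold above ependymal-like cells. Pfkm, the muscle-type phosphofructokinase, stood at 209.8, 274 and 239 CPM there, and the next class, choroid plexus-like cells, at 34.1, 50.6 and 40.1 CPM. Pfkp, the platelet-type subunit, was also highest in astrocyte-like cells, at 177, 76.5 and 170.2 CPM, with 1 library far below the others. Pgm1, which joins glycogen to glycolysis, was 4.52-fold above the next class, and Me1, the cytosolic malic enzyme, 1.80-fold. Dlat, the acetyltransferase subunit of pyruvate dehydrogenase, was 1.59-fold above the next class. Gpi, Pkm and Pdk2 were highest there too, but their libraries overlapped those of the next class.

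Oligodendrocyte-like cells carried Gpd1, the glycerol 3-phosphate dehydrogenase that passes electrons from cytosolic NADH, at 1029, 919.7 and 979 CPM. No other class came above 15.2 CPM in NC, a level 64.2-fold lower. Both subunits of the mitochondrial pyruvate carrier, Mpc1 and Mpc2, were highest in the same class, at 459 and 192 CPM, but overlapped with choroid plexus-like and ependymal-like cells respectively.

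Choroid plexus-like cells had the highest NC level of 7 genes, among them both lactate dehydrogenases. Ldhb, whose product is known to favour pyruvate formation, stood at 687, 655 and 661 CPM, above the 566, 523 and 585 CPM of astrocyte-like cells. Ldha, whose product is known to favour lactate, stood at 247, 245 and 269 CPM, close to mural-like cells with 248, 224 and 236 CPM. The libraries of these classes overlapped for Ldha when scaled with TMM factors and stood apart with total counts. Pgk1, phosphoglycerate kinase, and Pgam1, phosphoglycerate mutase, were also highest there, 1.39-fold and 1.58-fold above the next class, and for Gapdh the libraries overlapped those of ependymal-like cells. Aldoa, the widespread aldolase, was highest in mural-like cells at 638, 672 and 613 CPM. It stood 1.18-fold above choroid plexus-like cells, and the libraries of these classes overlapped when total counts replaced TMM factors.

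Ependymal-like cells led for 6 genes. Pygb, the brain form of glycogen phosphorylase, stood at 434, 265 and 391 CPM there and at 256, 228 and 249.7 CPM in astrocyte-like cells. Pfkl, the liver-type phosphofructokinase, stood at 154, 156 and 103 CPM, 2.34-fold above the next class, endothelial-like cells. Eno1, the widespread enolase, was at 573, 686 and 585 CPM, and the libraries of astrocyte-like cells overlapped with it. Pfkfb3, whose product makes the phosphofructokinase activator fructose 2,6-bisphosphate, was highest in ependymal-like and macrophage-like cells, with 280.4 and 206 CPM and overlapping libraries. The plot of NC levels by class shows all 37 genes.

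**Figure D1:**
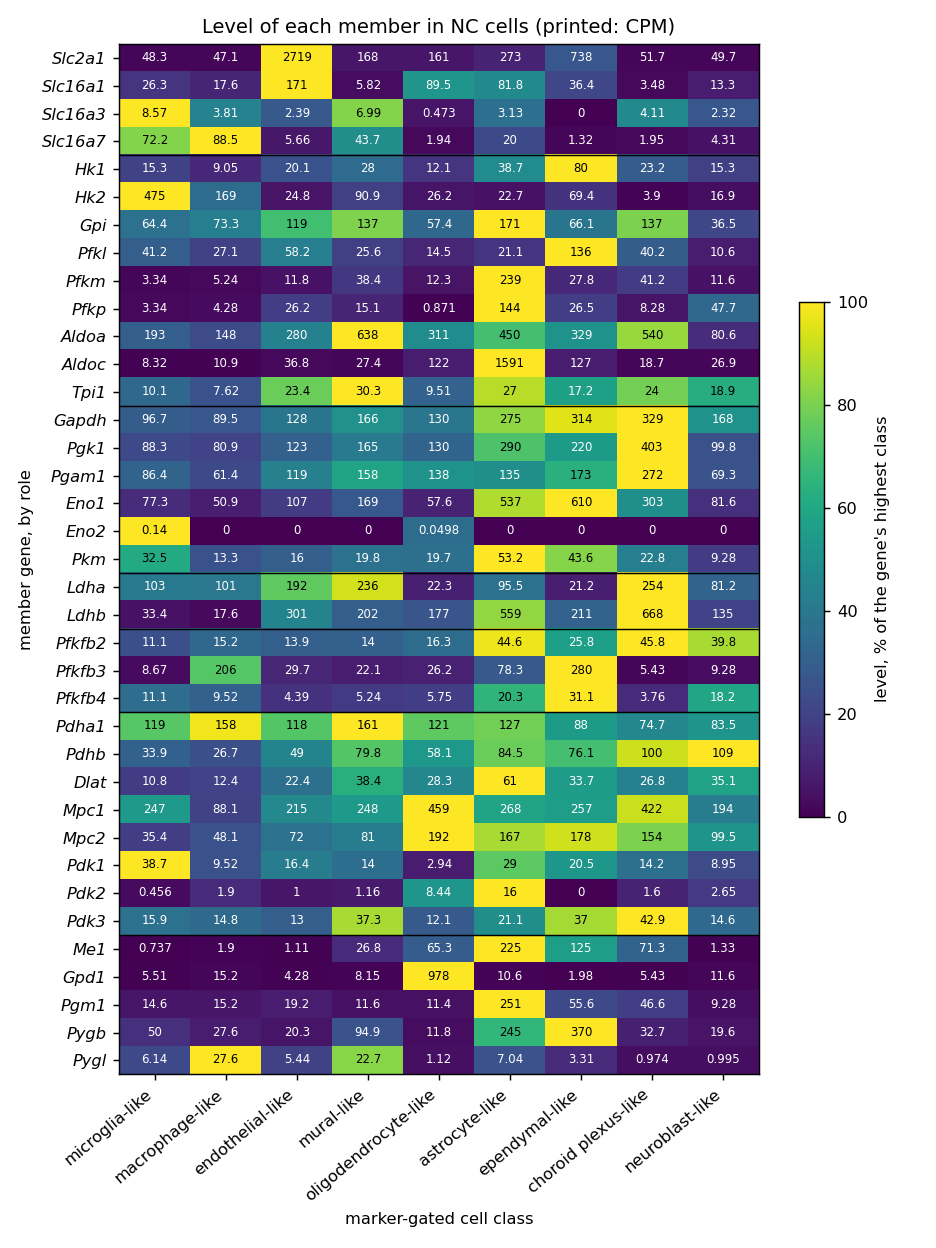
Level of each of the 37 genes (rows) in the NC group of 9 cell classes (columns). Printed numbers are CPM, and colour is the percent of the gene's highest class. Slc2a1 stands out in endothelial-like, Gpd1 in oligodendrocyte-like, Aldoc in astrocyte-like and Hk2 in microglia-like cells.

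Between the groups, 228 pairs of gene and class could be compared. Of these, 28 were called higher and 8 lower in CO. Endothelial-like and astrocyte-like cells held 16 of the 28 higher calls. By the same rule, 8.81% of all genes measured in endothelial-like cells were called higher and 6.68% lower. In astrocyte-like cells these shares were 9.62% and 11.7%. The shares of the other classes by this rule are given with each class below. Of all 36 calls, 15 were made under all 12 alternative settings. The shares in the next sentence come from a different rule and are not a background for these calls. A model with the libraries taken as replicates, given only in the closing observations, called 2.71% of all genes tested in astrocyte-like, 5.22% in neuroblast-like, 7.34% in mural-like, 8.91% in macrophage-like, 11.4% in ependymal-like, 22.8% in oligodendrocyte-like, 24.0% in choroid plexus-like, 32.7% in microglia-like and 38.4% in endothelial-like cells.

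**Figure D2:**
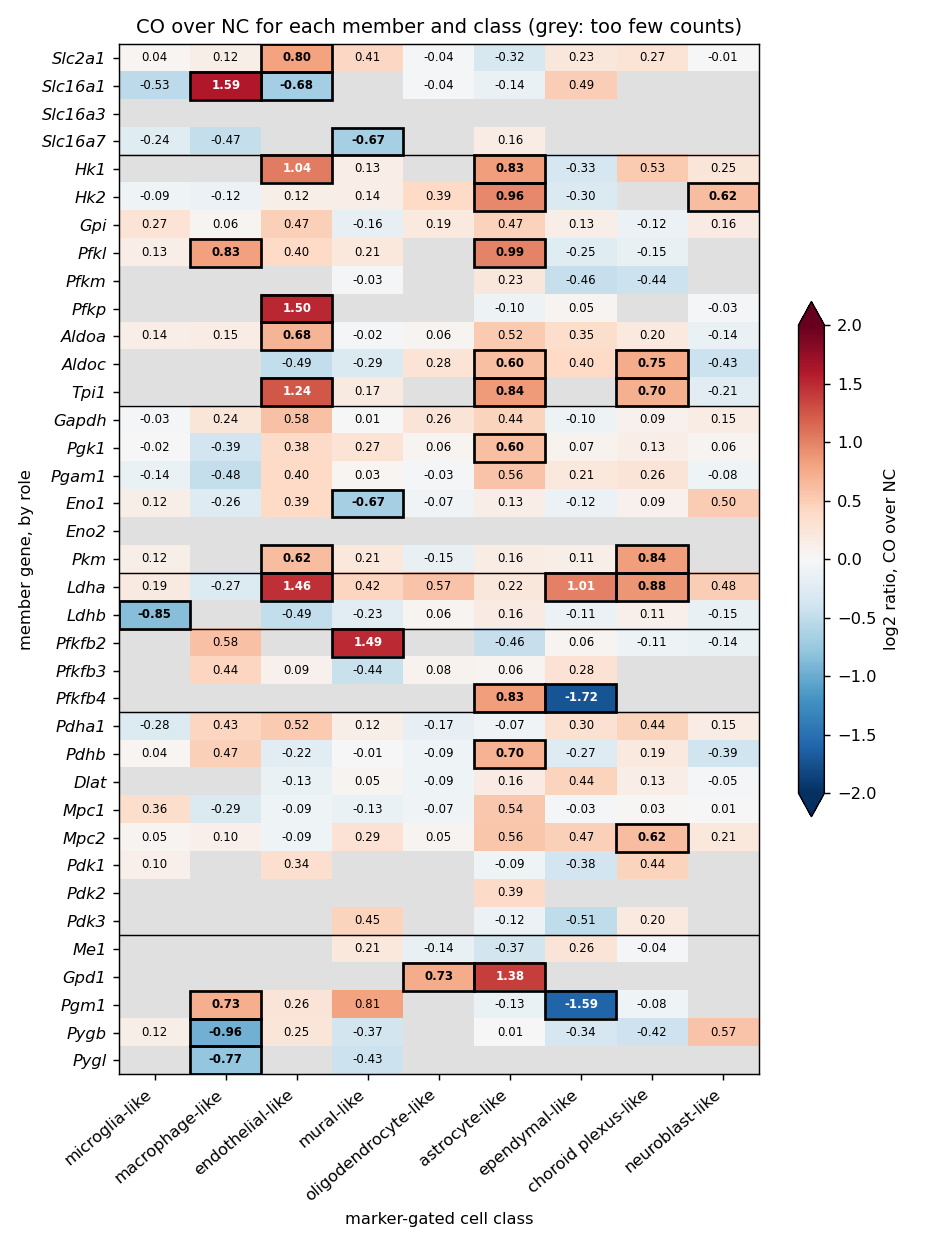
Log2 ratio of CO over NC for each gene (rows) in 9 cell classes (columns), with calls boxed and in bold and pairs under the minimum in grey. Calls are most frequent in the endothelial-like and astrocyte-like columns, with Slc2a1, Ldha and Pfkp in the first and Aldoc, Pgk1 and Pfkl in the second.

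Endothelial-like cells of CO held more RNA of Slc2a1, of Hk1, Pfkp, Aldoa, Tpi1 and Pkm among the glycolytic enzymes, and of Ldha, and less of Slc16a1. Of 26 genes measured, 7 were called higher and 1 lower, where 8.81% and 6.68% of all genes measured in the class were called in each direction. Ratios were above 1 for 19 of the 26 genes, beside 51.7% of all genes, and their median log2 ratio was 0.39, beside 0.014 for all genes. All CO libraries lay above all NC libraries for 15 genes and below for 3, beside 29.9% and 25.9% of all genes.

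Slc2a1 stood at 2713, 2695 and 2746 CPM in NC and 4814, 4639 and 4761 CPM in CO. Every CO library was far above every NC library, with a log2 ratio of 0.80 (0.79 to 0.82). Hk1 stood at 24.9, 15.0 and 20.0 CPM in NC and 42.8, 43.9 and 37.2 CPM in CO, again without overlap, and its log2 ratio was 1.04 (0.85 to 1.23). The other hexokinase, Hk2, overlapped between the groups, with a log2 ratio of 0.12 (-0.08 to 0.32). Pfkp showed the largest ratio among the 26 genes. Its libraries held 25.6, 26.9 and 26.2 CPM in NC and 70.9, 79.8 and 72.4 CPM in CO, and the log2 ratio was 1.5 (1.35 to 1.66). Aldoa, which cleaves fructose 1,6-bisphosphate, stood at 268, 289.9 and 283 CPM in NC and 439, 441 and 464 CPM in CO, with no overlap. Its log2 ratio was 0.68 (0.63 to 0.73), and 0.68 became 0.58, under the 1.5-fold mark, with total counts in place of TMM factors. Tpi1, which interconverts the triose phosphates, was at 24.4, 24.9 and 21.2 CPM in NC and 53.2, 53.4 and 59.2 CPM in CO, and all CO libraries were more than 2-fold above all NC libraries. Its log2 ratio was 1.24 (1.07 to 1.41).

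The steps from triose phosphates to pyruvate moved less far. Gapdh, Pgk1, Pgam1 and Eno1 had log2 ratios of 0.58, 0.38, 0.40 and 0.39, all under the 1.5-fold mark although every CO library lay above every NC library for each of the 4 genes. Pkm, the pyruvate kinase of most tissues, stood at 17.5, 15.1 and 15.4 CPM in NC and 22.4, 26.6 and 25.3 CPM in CO, close to the minimum level, with a log2 ratio of 0.62 (0.40 to 0.85). This call was lost, at 0.51 to 0.58, with total counts, with a stricter gate, with the highest doublet scores left out and without CO replicate 2.

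Lactate dehydrogenases went apart. Ldha stood at 195, 192 and 189 CPM in NC and 524, 523 and 539 CPM in CO, so the CO libraries held more than 2.5-fold the NC level, with a log2 ratio of 1.46 (1.40 to 1.52). Ldhb stood at 310.0, 299 and 294 CPM in NC and 214, 214 and 214 CPM in CO, with the CO libraries all below, and its log2 ratio of -0.49 (-0.55 to -0.43) was under the mark. Of the UMIs of both genes, Ldhb held 61.1% (60.0 to 62.1) in NC and 28.8% (28.0 to 29.7) in CO. Thinned to 2000 UMIs per cell, which left out 437 NC and 195 CO cells, Ldha was seen in 27.5% (25.8 to 29.2) of 2642 cells in NC and 55.1% (52.9 to 57.3) of 2037 cells in CO. Without thinning the shares were 46.9% of 3079 cells in NC and 75.7% of 2232 cells in CO, at median depths of 4404 and 5389 UMIs. Oligodendrocyte-like cells, in which Ldha is low, gave 3.48% (2.88 to 4.16) of 3309 cells in NC and 4.73% (3.65 to 6.03) of 1310 cells in CO at the same thinned depth, with unthinned median depths of 8669 and 9815 UMIs.

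Slc16a1 was the only gene of the list called lower in endothelial-like cells. Its libraries held 162, 175 and 177 CPM in NC and 121, 96.8 and 102 CPM in CO, with no overlap, and the log2 ratio was -0.68 (-0.77 to -0.60). Of 6 genes of pyruvate entry measured, 0 were called in either direction. Pdha1, the catalytic subunit of pyruvate dehydrogenase, came nearest at 122, 109 and 122 CPM in NC and 166, 169 and 172 CPM in CO, with all CO libraries above and a log2 ratio of 0.52 (0.44 to 0.60). Pdk1, a kinase that shuts off pyruvate dehydrogenase, was also above NC in every CO library, at 16.6, 15.0 and 17.4 CPM in NC and 17.9, 24.8 and 19.7 CPM in CO, with a log2 ratio of 0.34 (0.10 to 0.57). Mpc1, Mpc2, Dlat and Pdhb had log2 ratios from -0.22 to -0.09, and their libraries overlapped. The plot of endothelial-like libraries shows the values.

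**Figure D3:**
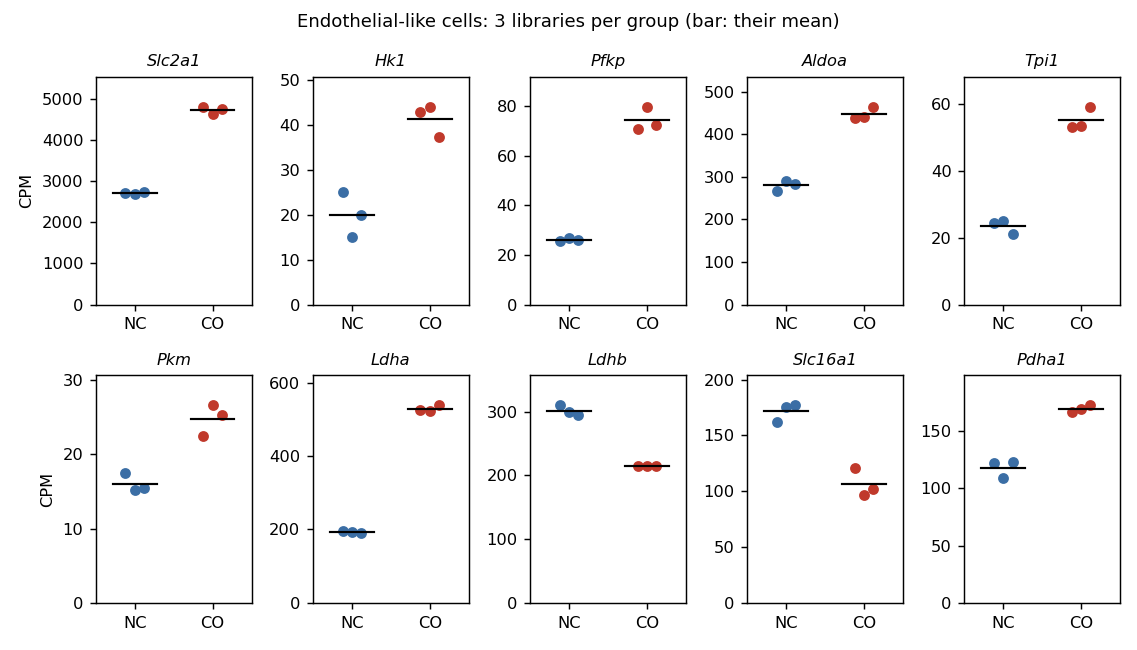
CPM of 10 genes in each library of endothelial-like cells (points) with the mean of the 3 libraries (bar), NC beside CO, on axes that start at 0. The groups do not overlap for any of the 10 genes shown. Slc16a1 and Ldhb are lower in CO and the other 8 are higher.

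Upstream sequence is shown for a glucose transporter, a lactate dehydrogenase and a phosphofructokinase that were called higher in endothelial-like cells, and for Slc16a1, the gene called lower there. They were chosen after their values were seen. The windows are the 250 bases before the start site in RefSeq's GRCr8 build, whereas the counts were made on Rnor_6.0, and all 4 are on the plus strand. They lie at chr5:138002272-138002521 (Slc2a1), chr1:106507842-106508091 (Ldha), chr17:68639563-68639812 (Pfkp) and chr2:194812410-194812659 (Slc16a1). Capitals mark the letters ACGTG or GCGTG on either strand, the core of the hypoxia response element, and overlapping matches were counted separately.
Slc2a1: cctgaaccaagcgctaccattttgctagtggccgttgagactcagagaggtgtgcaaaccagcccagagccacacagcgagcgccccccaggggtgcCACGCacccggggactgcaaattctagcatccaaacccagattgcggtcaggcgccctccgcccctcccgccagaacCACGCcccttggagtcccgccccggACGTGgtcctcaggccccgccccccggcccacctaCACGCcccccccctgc
Ldha: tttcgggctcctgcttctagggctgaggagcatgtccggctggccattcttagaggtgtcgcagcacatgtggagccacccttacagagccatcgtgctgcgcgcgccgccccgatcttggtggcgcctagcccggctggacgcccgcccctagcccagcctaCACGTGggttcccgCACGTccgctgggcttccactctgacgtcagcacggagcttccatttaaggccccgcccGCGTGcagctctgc
Pfkp: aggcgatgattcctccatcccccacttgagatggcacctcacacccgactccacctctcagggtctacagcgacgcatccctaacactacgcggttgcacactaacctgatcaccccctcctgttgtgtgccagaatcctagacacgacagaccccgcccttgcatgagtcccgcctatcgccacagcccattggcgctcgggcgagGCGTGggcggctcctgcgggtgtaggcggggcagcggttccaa
Slc16a1: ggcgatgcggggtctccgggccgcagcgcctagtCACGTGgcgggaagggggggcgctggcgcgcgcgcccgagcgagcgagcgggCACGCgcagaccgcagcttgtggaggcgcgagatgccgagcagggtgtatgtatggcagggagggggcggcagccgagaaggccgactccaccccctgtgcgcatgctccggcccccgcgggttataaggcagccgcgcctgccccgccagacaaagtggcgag
The windows held 4, 4, 1 and 3 matches, so the gene that was lower in CO held them as well as the 3 that were higher. Of the other genes called higher in endothelial-like cells, Tpi1 and Pkm had 0 matches. Aldoa and Hk1 each had a window with 1 match and at least 1 window with 0. RefSeq windows were found for 35 of the genes, of which 27 (77.1%) had at least 1 match, beside 53.6% of 12122 genes of the files with a window. Counted by window, 28 of 39 windows of the list (71.8%) had a match, beside 50.8% of 13661 windows of genes in the files and 36.7% of 33469 windows of all genes. A match describes the letters only. No binding was measured.

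Other measures of the endothelial-like class differed between the groups as well. Summed markers of oligodendrocytes (10 genes) stood at 140.5 to 155 CPM in NC and 61.9 to 72.0 CPM in CO in endothelial-like cells, a median of 0.493% in NC and 0.146% in CO of the level in their own class. Summed markers of mural cells (11 genes) stood at 277 to 323 CPM in NC and 449.8 to 513 CPM in CO, and the class's own markers at 15047 to 15334 CPM in NC and 14819.9 to 15057 CPM in CO. Clustering of all cells parted the endothelial cells by group, with 2561 NC and 30 CO cells in 1 cluster and 75 NC and 1898 CO cells in another. The part of these differences in the values above was not tested.

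Of 23 other genes of glucose, glycogen and pyruvate handling measured in endothelial-like cells, 6 had a ratio above 1, 0 were called higher and 2 lower, where 8.81% and 6.68% of all genes were called. Slc16a4, a monocarboxylate carrier homologue, was at 98.0, 96.6 and 95.2 CPM in NC and 35.1, 37.6 and 32.7 CPM in CO, lower in every CO library, with a log2 ratio of -1.46 (-1.60 to -1.32). Of 5 genes of the pentose phosphate pathway 0 were called. Of 18 genes of the tricarboxylic acid cycle and the malate-aspartate shuttle, 1 was called higher and 1 lower. The lower 1 was Idh2, the mitochondrial NADP-dependent isocitrate dehydrogenase, at 73.1, 74.1 and 76.9 CPM in NC and 29.8, 27.4 and 32.9 CPM in CO, without overlap, with a log2 ratio of -1.31 (-1.47 to -1.16).

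Astrocyte-like cells of CO had higher levels of several glycolytic genes. Of 34 genes measured, 9 were called higher and 0 lower, where 9.62% and 11.7% of all genes measured in the class were called. Ratios were above 1 for 25 genes, beside 50.8% of all genes, and the median log2 ratio was 0.23. All CO libraries lay above all NC libraries for 14 genes and below for 2, beside 13.2% and 13.3% of all genes. The class numbered 509 cells in NC and 660 in CO, with medians of 3700 and 2910.5 UMIs. Of the Leiden clusters named astrocyte-like, that with a median of 768.5 UMIs held 150 NC and 352 CO cells, and that with a median of 4955 UMIs held 391 and 338. In cells of at least 2000 UMIs, 6 genes were called higher and 0 lower, and the median log2 ratio was 0.28. The shares of all genes above are of the full class, and none is given for these deeper cells.

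Both hexokinases were called higher. Hk1 stood at 38.8, 28.9 and 48.4 CPM in NC and 54.3, 68.7 and 79.4 CPM in CO, with no overlap and a log2 ratio of 0.83 (0.48 to 1.19), which was 0.47 in cells of at least 2000 UMIs. Hk2 stood at 11.5, 28.9 and 29.8 CPM in NC and 53.2, 28.0 and 52.1 CPM in CO, so that the lowest CO library lay among the NC libraries, and its log2 ratio of 0.96 (0.51 to 1.43) was 0.58 without NC replicate 1. Pfkl was at 21.0, 26.3 and 16.1 CPM in NC and 40.8, 45.2 and 40.1 CPM in CO, with all CO libraries above and a log2 ratio of 0.99 (0.53 to 1.47). Pfkm and Pfkp, for which this class was the highest in NC, overlapped between the groups, with log2 ratios of 0.23 and -0.10. Aldoc stood at 1677, 1518 and 1560.3 CPM in NC and 2641, 2209 and 2447 CPM in CO. The groups were far apart against the spread of their libraries, and the log2 ratio of 0.60 (0.55 to 0.66) lay at the edge of the 1.5-fold mark, 0.49 to 0.57 under 7 of the 12 alternatives. Those were total counts, cells of at least 2000 UMIs, Leiden clusters, the highest doublet scores left out, and leaving out NC replicate 2, NC replicate 3 or CO replicate 1.

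Tpi1 stood at 29.4, 28.9 and 22.4 CPM in NC and 56.6, 37.9 and 52.1 CPM in CO, without overlap and with a log2 ratio of 0.84 (0.43 to 1.27). Pgk1, which makes ATP from 1,3-bisphosphoglycerate, stood at 241, 343 and 296 CPM in NC and 422, 385 and 504 CPM in CO, and the lowest CO library was above the highest NC library. Its log2 ratio was 0.60 (0.48 to 0.73), and it was 0.55 to 0.56 with total counts or in cells of at least 2000 UMIs, 0.45 without NC replicate 1 and 0.46 without CO replicate 3. Pfkfb4, a kinase that raises fructose 2,6-bisphosphate, stood at 19.9, 15.1 and 26.1 CPM in NC and 28.3, 36.1 and 41.7 CPM in CO, with a log2 ratio of 0.83 (0.35 to 1.33) and no overlap. Gapdh, Pgam1 and Aldoa were at log2 ratios of 0.44, 0.56 and 0.52, under the mark, with every CO library above every NC library.

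Of the 8 pyruvate entry genes, all measured in astrocyte-like cells, 1 was called higher and 0 lower, where 9.62% and 11.7% of all genes were, and 5 had a ratio above 1. Pdhb, the beta subunit of pyruvate dehydrogenase, stood at 85.0, 72.8 and 95.7 CPM in NC and 123, 151 and 136 CPM in CO, without overlap and with a log2 ratio of 0.70 (0.46 to 0.94). This call was lost with a stricter gate (0.57), with Leiden clusters (0.43) and with the highest doublet scores left out (0.52). Mpc1 and Mpc2 had log2 ratios of 0.54 and 0.56 with no overlap, and Pdha1 of -0.07 with overlap. Slc2a1 went the other way from endothelial-like cells, at 246, 309.9 and 267 CPM in NC and 219.6, 222 and 214 CPM in CO, with a log2 ratio of -0.32 (-0.47 to -0.17) that was not a call. Ldha and Ldhb had log2 ratios of 0.22 and 0.16.

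Gpd1 was at 11.5, 8.78 and 11.2 CPM in NC and 20.4, 38.8 and 22.5 CPM in CO in astrocyte-like cells, with a log2 ratio of 1.38 (0.74 to 2.06). The call did not hold, since the log2 ratio was -0.97 when Leiden clusters replaced the gate, and without CO replicate 2 it was 1.02 and no call. Summed markers of oligodendrocytes, the class in which Gpd1 is highest, stood at 163 to 266 CPM in NC and 50.9 to 233 CPM in CO in astrocyte-like cells. Those of neuroblasts (8 genes) stood at 610.0 to 832 CPM in NC and 427 to 469.8 CPM in CO. Their part in the results of this class was not tested.

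**Figure D4:**
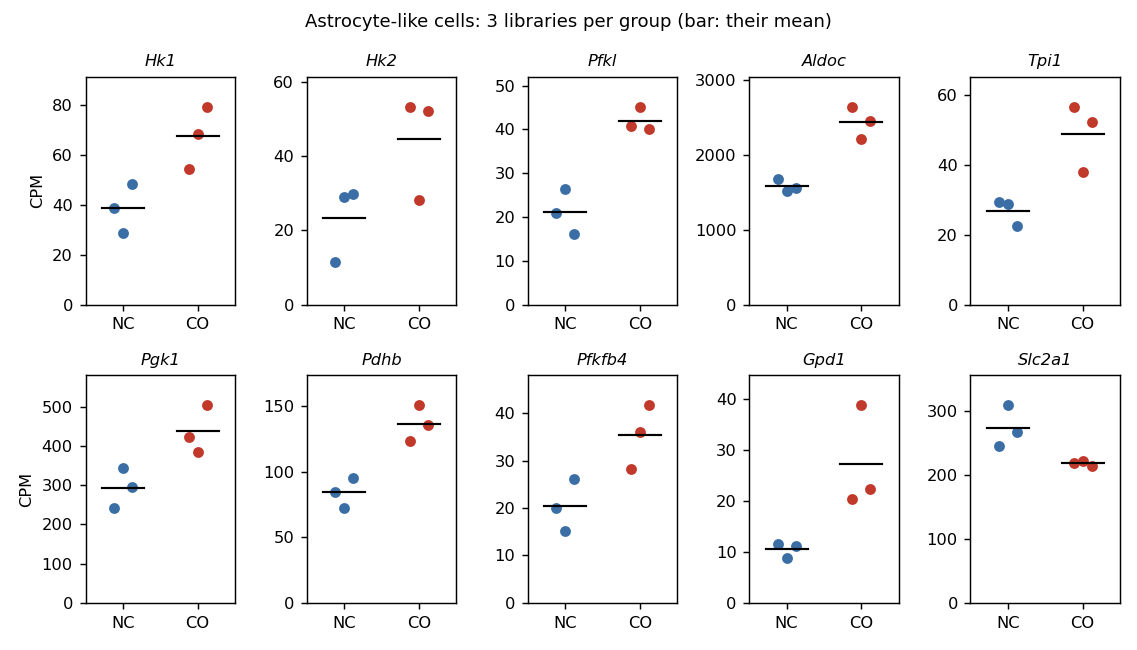
CPM of 10 genes in each library of astrocyte-like cells (points) with the mean of the 3 libraries (bar), NC beside CO, on axes that start at 0. The groups overlap for Hk2, Slc2a1 is lower in CO, and the other 8 genes are higher in every CO library.

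Among other pathway genes of astrocyte-like cells, 4 of 26 measured were called higher and 4 lower. Pdk4, a kinase that shuts off pyruvate dehydrogenase, stood at 8.39, 7.53 and 14.9 CPM in NC and 40.8, 28.0 and 61.7 CPM in CO, with all CO libraries above and a log2 ratio of 2.13 (1.52 to 2.79). Slc2a12, a glucose transporter, had a log2 ratio of -1.47 (-2.12 to -0.85), and Me3, a mitochondrial malic enzyme, of -1.52 (-2.23 to -0.84), with every CO library below. Of 7 pentose phosphate genes 0 were called, and of 18 genes of the tricarboxylic acid cycle and the shuttle 2 were called higher.

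Choroid plexus-like cells, which make cerebrospinal fluid, shared the higher Ldha. Of 26 genes measured, 5 were called higher and 0 lower, where 8.49% and 8.81% of all genes measured in the class were called. Ratios were above 1 for 19 genes, beside 53.0% of all genes, CO and NC libraries were apart with 7 genes above and 1 below, beside 23.9% and 20.1% of all genes, and the median log2 ratio was 0.16. Ldha stood at 247, 245 and 269 CPM in NC and 527, 408 and 462 CPM in CO, without overlap, and its log2 ratio was 0.88 (0.81 to 0.94). Ldhb overlapped between the groups at a log2 ratio of 0.11 (0.06 to 0.15). Pkm stood at 21.9, 24.6 and 22.2 CPM in NC and 39.9, 39.3 and 42.6 CPM in CO, with tight libraries far apart and a log2 ratio of 0.84 (0.62 to 1.05). Tpi1 stood at 26.3, 25.1 and 20.8 CPM in NC and 46.5, 35.6 and 35.8 CPM in CO, with a log2 ratio of 0.70 (0.49 to 0.92), and Mpc2 at 159, 160.3 and 144 CPM in NC and 232, 227 and 248 CPM in CO, with a log2 ratio of 0.62 (0.54 to 0.71). These groups did not overlap either, but both calls were lost with total counts (0.56 and 0.48) and with Leiden clusters (0.55 and 0.57), and leaving out CO replicate 1 (Tpi1, 0.57) or NC replicate 3 or CO replicate 3 (Mpc2, 0.57 and 0.58) ended them as well. Aldoc was also called, at 15.5, 25.5 and 15.9 CPM in NC and 32.9, 22.8 and 36.1 CPM in CO, and here the groups overlapped, with a log2 ratio of 0.75 (0.50 to 0.99). Of 17 other pathway genes measured, 3 were called higher and 0 lower. Me3 stood at 7.02, 6.21 and 5.95 CPM in NC and 39.5, 30.5 and 23.6 CPM in CO, above NC in every CO library, with a log2 ratio of 2.25 (1.91 to 2.61). Of 4 pentose phosphate genes and 17 genes of the tricarboxylic acid cycle and the shuttle, 0 were called. Summed markers of oligodendrocytes stood at 70.4 to 144 CPM in NC and 54.3 to 85.7 CPM in CO in this class, those of ependymal cells (8 genes) at 446 to 491 CPM in NC and 442 to 482 CPM in CO, and the class's own at 7515 to 8116 CPM in NC and 6916 to 7296 CPM in CO.

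Ependymal-like cells, the ciliated lining of the ventricles, numbered 133 in NC and 166 in CO. Of 30 genes measured, 1 was called higher and 2 lower, where 12% and 14.8% of all genes measured in the class were called. A ratio above 1 was found for 16 of the measured genes, beside 48.5% of all genes, and CO and NC libraries were apart with 5 genes above and 4 below, beside 14.5% and 16.0% of all genes. The median log2 ratio was 0.06. Ldha stood at 19.0, 6.90 and 34.4 CPM in NC and 39.3, 49.4 and 39.5 CPM in CO, low but without overlap, with a log2 ratio of 1.01 (0.42 to 1.64), which was 1.65 without NC replicate 3. Pfkfb4 stood at 26.7, 23.0 and 41.6 CPM in NC and 5.95, 12.4 and 10.6 CPM in CO, lower in every CO library, with a log2 ratio of -1.72 (-2.54 to -0.95) that was -2.32 with a stricter gate. Pgm1 stood at 59.0, 62.1 and 47.1 CPM in NC and 22.6, 17.8 and 13.7 CPM in CO, again without overlap, with a log2 ratio of -1.59 (-2.17 to -1.04). The other 27 genes had log2 ratios between -0.51 for Pdk3 and 0.49 for Slc16a1. Of 20 other pathway genes 1 was called higher and 4 lower, among them Ppp1r3c, a subunit that directs a phosphatase to glycogen, at a log2 ratio of -1.03 (-1.57 to -0.51), and Gyg1, the primer protein of glycogen, at -1.44 (-2.20 to -0.71). Of 5 pentose phosphate genes 0 were called, and of 18 genes of the tricarboxylic acid cycle and the shuttle 2 were called higher and 1 lower, Slc25a12, an aspartate-glutamate carrier, at -1.31 (-2.04 to -0.60). Summed markers of endothelial cells (8 genes) stood at 16.1 to 48.9 CPM in NC and 88.0 to 154 CPM in CO in ependymal-like cells. Those of microglia (7 genes) stood at 24.8 to 83.3 CPM in NC and 97.6 to 117 CPM in CO and those of oligodendrocytes at 196 to 257 CPM in NC and 149.6 to 161 CPM in CO. These lists did not overlap between the groups, and their part in these values was not tested.

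Oligodendrocyte-like cells had 1 call among 21 genes measured, where 2.42% and 2.08% of all genes measured in the class were called higher and lower. A ratio above 1 was found for 11 of the measured genes, beside 51.2% of all genes, and CO and NC libraries were apart with 7 genes above and 1 below, beside 21.6% and 19.9% of all genes. That gene was Gpd1, for which the class is the main site. Its libraries held 1029, 919.7 and 979 CPM in NC and 1532, 1750.0 and 1605 CPM in CO, with every CO library above every NC library, and the log2 ratio was 0.73 (0.71 to 0.76). Ldha came next at 19.5, 23.0 and 24.5 CPM in NC and 27.9, 38.1 and 33.8 CPM in CO, also without overlap, and its log2 ratio of 0.57 (0.41 to 0.73) was under the mark. Hk2 and Aldoc had log2 ratios of 0.39 and 0.28 with all CO libraries above. The carrier genes Slc2a1, Slc16a1, Mpc1 and Mpc2 lay between -0.07 and 0.05. Summed markers of endothelial cells stood at 136 to 158 CPM in NC and 30.7 to 33.2 CPM in CO in this class, those of microglia at 167 to 184 CPM in NC and 115 to 130.3 CPM in CO and those of neuroblasts at 52.9 to 67.5 CPM in NC and 94.4 to 99.2 CPM in CO, and their part was not tested. Of 18 other pathway genes 2 were called higher and 0 lower, of 6 pentose phosphate genes 0 were called, and of 17 genes of the tricarboxylic acid cycle and the shuttle 1 was called higher.

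Microglia-like cells had the most cells behind each value and small differences. Of 20 genes measured, 0 were called higher and 1 lower, where 2.82% and 2.62% of all genes measured in the class were called. A ratio above 1 was found for 12 of the measured genes, beside 52.3% of all genes, and CO and NC libraries were apart with 5 genes above and 4 below, beside 28.0% and 23.8% of all genes. The median log2 ratio was 0.05, beside 0.014 for all genes. Ldhb stood at 31.3, 33.7 and 35.0 CPM in NC and 17.3, 18.5 and 19.6 CPM in CO, with the groups far apart, and the log2 ratio was -0.85 (-1.01 to -0.70). Hk2 stood at 464, 469 and 490.3 CPM in NC and 447, 471 and 423 CPM in CO, with overlap and a log2 ratio of -0.09 (-0.12 to -0.06). Mpc1 had the highest ratio at 234, 254 and 252 CPM in NC and 319, 311 and 317 CPM in CO, above NC in every library, at 0.36 (0.31 to 0.40). Slc16a1 and Slc16a7 were lower in every CO library at log2 ratios of -0.53 and -0.24, which were not calls, as was Pdha1 at -0.28. Markers of oligodendrocytes summed to 93.5 to 102 CPM in NC and 42.6 to 46.3 CPM in CO in microglia-like cells. Their median level was 0.422% in NC and 0.169% in CO of that in their own class. Markers of the choroid plexus (7 genes) summed to 16.7 to 18.8 CPM in NC and 9.04 to 9.36 CPM in CO. Markers of astrocytes (10 genes) summed to 232 to 239 CPM in NC and 289 to 294 CPM in CO. Their part in the Ldhb value was not tested. Of 17 other pathway genes 2 were called higher and 1 lower. Of 6 pentose phosphate genes 0 were called. Of 16 genes of the tricarboxylic acid cycle and the shuttle 1 was called, Slc25a13, an aspartate-glutamate carrier of the malate-aspartate shuttle, at 97.8, 119 and 104 CPM in NC and 262, 253 and 257 CPM in CO, with a log2 ratio of 1.27 (1.21 to 1.33).

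Macrophage-like cells, from 485 NC and 382 CO cells, gave calls that often rested on 1 library or few UMIs. Of 21 genes measured, 3 were called higher and 2 lower, where 12% and 12.7% of all genes measured in the class were called. A ratio above 1 was found for 12 of the measured genes, beside 50.5% of all genes, and CO and NC libraries were apart with 4 genes above and 2 below, beside 15.0% and 14.2% of all genes. The median log2 ratio was 0.10. Pfkl stood at 31.5, 26.1 and 24.2 CPM in NC and 37.0, 54.5 and 51.8 CPM in CO, without overlap, with a log2 ratio of 0.83 (0.34 to 1.33) that was 0.46 with a stricter gate. Slc16a1 stood at 18.0, 13 and 21.5 CPM in NC and 20.9, 15.8 and 123 CPM in CO, so that only CO replicate 3 stood apart, and its log2 ratio of 1.59 (1.04 to 2.18) was 0.05 without that library. Pgm1 rested on 32 UMIs in NC and 50 in CO, at 15.0, 15.9 and 14.8 CPM in NC and 22.5, 23.0 and 30.5 CPM in CO without overlap, with a log2 ratio of 0.73 (0.06 to 1.42). It was no call under 6 of the 12 alternatives, at 0.58 to 0.76. These were cells of at least 2000 UMIs, a stricter gate, and leaving out NC replicate 1, 2 or 3 or CO replicate 3. Pygb stood at 19.5, 36.2 and 26.9 CPM in NC and 9.66, 18.7 and 13.7 CPM in CO, lower in every CO library, with a log2 ratio of -0.96 (-1.67 to -0.29), which was -0.73 without NC replicate 2 and no call, and -1.55 with a stricter gate. Pygl, the liver form of glycogen phosphorylase, stood at 31.5, 2.90 and 47.0 CPM in NC and 11.3, 24.4 and 12.2 CPM in CO with wide overlap and a log2 ratio of -0.77 (-1.44 to -0.12). In NC 58.6% of its UMIs came from 1 cell, and the ratio was -0.07 without NC replicate 3, -0.68 without NC replicate 1 and -0.58 or -0.60 without CO replicate 1 or 3, none of them a call, and -1.36 with a stricter gate. Of 14 other pathway genes 6 were called higher and 2 lower. Emb, the partner protein that brings Slc16a7 to the membrane, stood at 19.5, 11.6 and 12.1 CPM in NC and 108, 94.7 and 53.4 CPM in CO, with a log2 ratio of 2.58 (2.01 to 3.19). Of 6 pentose phosphate genes 3 were called higher and 1 lower, and of 15 genes of the tricarboxylic acid cycle and the shuttle 3 higher and 1 lower.

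Mural-like cells, which are pericytes and smooth muscle cells of vessels, had 29 genes measured. Of these 1 was called higher and 2 lower, where 11.4% and 11.8% of all genes measured in the class were called. A ratio above 1 was found for 17 of the measured genes, beside 49.1% of all genes, and CO and NC libraries were apart with 3 genes above and 1 below, beside 13% and 13.9% of all genes. The median log2 ratio was 0.05. Pfkfb2 stood at 24.4, 8.14 and 9.20 CPM in NC and 43.5, 37.4 and 36.3 CPM in CO, without overlap, on 24 UMIs in NC and 77 in CO, with a log2 ratio of 1.49 (0.81 to 2.21), which was 2.16 without NC replicate 1. Eno1 stood at 197, 153 and 156 CPM in NC and 119, 92.0 and 109 CPM in CO, also without overlap, with a log2 ratio of -0.67 (-0.93 to -0.40) that was -0.54 without NC replicate 1 and -0.56 without CO replicate 2, neither a call. Slc16a7 stood at 73.2, 12.2 and 41.4 CPM in NC and 42.1, 25.9 and 12.1 CPM in CO, overlapping widely, with a log2 ratio of -0.67 (-1.20 to -0.14). It was no call with Leiden clusters (-0.29), without NC replicate 1 (-0.07) or without CO replicate 3 (-0.35). Ldha stood at 248, 224 and 236 CPM in NC and 316, 308 and 328 CPM in CO, above NC in every CO library, with a log2 ratio of 0.42 (0.24 to 0.61) that was not a call. Summed markers of oligodendrocytes stood at 199 to 238 CPM in NC and 66.7 to 74.3 CPM in CO in this class. Those of neuroblasts stood at 57.5 to 143 CPM in NC and 10.2 to 32.8 CPM in CO. Those of the choroid plexus stood at 23.0 to 99.4 CPM in NC and 5.80 to 10.4 CPM in CO. The class's own stood at 22057 to 24468 CPM in NC and 25126 to 25352.5 CPM in CO. None of these overlapped between the groups, and their part in the values of mural-like cells was not tested. Of 27 other pathway genes 3 were called higher and 4 lower, of 6 pentose phosphate genes 1 lower, and of 18 genes of the tricarboxylic acid cycle and the shuttle 2 higher.

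Neuroblast-like cells, gated by markers of young neurons and with Gad1 and Gad2 among their leading genes, numbered 472 in NC and 1343 in CO. Of 21 genes measured 1 was called higher and 0 lower, where 5.99% and 4.61% of all genes measured in the class were called. A ratio above 1 was found for 11 of the measured genes, beside 47.2% of all genes, and CO and NC libraries were apart with 3 genes above and 0 below, beside 12.8% and 14.1% of all genes. The median log2 ratio was 0.01. The call was Hk2, at 21.2, 12.4 and 16.3 CPM in NC and 30.0, 30.2 and 17.6 CPM in CO, with overlap and a log2 ratio of 0.62 (0.18 to 1.08). It did not hold without NC replicate 2 (0.48) or 3 (0.58), without CO replicate 1 or 2 (both 0.50) or with Leiden clusters (0.44), and was -0.73 with the highest doublet scores left out. Ldha and Eno1 lay above NC in every CO library, at 94.4, 71.7 and 76.2 CPM in NC and 115, 115 and 112 CPM in CO for Ldha, with log2 ratios of 0.48 and 0.50, which were not calls. Of 17 other pathway genes 1 was called higher and 1 lower, of 6 pentose phosphate genes 0, and of 18 genes of the tricarboxylic acid cycle and the shuttle 1 lower. Summed markers of macrophages (9 genes) stood at 5.78 to 8.65 CPM in NC and 33.9 to 58.9 CPM in CO in neuroblast-like cells, those of oligodendrocytes at 106 to 156 CPM in NC and 67.6 to 82.9 CPM in CO and those of mural cells at 78.0 to 98.8 CPM in NC and 27.0 to 59.0 CPM in CO. None of these overlapped between the groups, and their part in these values was not tested.

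The balance of isozymes was read as the share of 1 gene in the UMIs of its family, which does not depend on scaling. The share of Ldhb in Ldha and Ldhb was lower in CO in 9 of 9 classes, and in 8 of them all CO libraries lay below all NC libraries. The classes share libraries and free RNA, so they are not independent. Endothelial-like cells had 61.4%, 60.9% and 60.9% in NC and 29.0%, 29.1% and 28.4% in CO, apart by far more than the spread of the libraries. Microglia-like cells had 23.2%, 24.1% and 26.1% in NC and 13.1%, 13.5% and 14.3% in CO. Macrophage-like cells had 14.9% (10.7 to 19.9) in NC and 2.37% (0.649 to 5.95) in CO, on 37 and 4 UMIs of Ldhb. Choroid plexus-like cells had 72.4% (71.7 to 73.2) in NC and 60.7% (59.8 to 61.6) in CO, where the libraries gave 73.6%, 72.7% and 71.1% in NC and 55.4%, 65.2% and 61.7% in CO. In neuroblast-like cells the share was 62.5% (58.6 to 66.2) in NC and 51.7% (49.6 to 53.7) in CO, and in mural-like cells 46.1% (42.5 to 49.7) in NC and 35.2% (32.2 to 38.3) in CO. The share was high in both groups of ependymal-like cells, with 90.9% (87.4 to 93.7) in NC and 82.1% (78.5 to 85.2) in CO, and of oligodendrocyte-like cells, with 88.8% (88.1 to 89.5) in NC and 84.8% (83.5 to 85.9) in CO. Astrocyte-like cells had 80.6%, 88.5% and 88.7% in NC and 80.2%, 88.7% and 85.0% in CO, with overlap.

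Phosphofructokinase subunits changed their balance in fewer classes. The share of Pfkp in Pfkl, Pfkm and Pfkp was 27.3% (25.2 to 29.4) in NC and 46.9% (44.9 to 49.0) in CO in endothelial-like cells. Choroid plexus-like cells had 9.24% (7.71 to 11.0) in NC and 25.0% (22.2 to 28.1) in CO, with libraries at 10.5%, 7.78% and 9.51% in NC and 23.4%, 26.1% and 25.9% in CO. In both classes no library of the groups overlapped, as also in macrophage-like and oligodendrocyte-like cells, where the shares were 11.7% (5.49 to 21.0) in NC and 21.3% (14.8 to 29.2) in CO and 3.15% (2.20 to 4.35) in NC and 4.64% (3.05 to 6.73) in CO and Pfkp had few UMIs. Neuroblast-like cells had the highest share of Pfkp, 68.2% (61.5 to 74.5) in NC and 64.4% (60.8 to 68.0) in CO, with overlap. Aldoc held 77.9% (76.8 to 79.1) in NC and 79.0% (78.2 to 79.8) in CO of the aldolase UMIs of astrocyte-like cells and 11.6% (10.8 to 12.5) in NC and 5.54% (5.03 to 6.09) in CO in endothelial-like cells, where the groups did not overlap. Hk2 held 68.5% (66.1 to 70.8) in NC and 81.4% (78.3 to 84.3) in CO of the hexokinase UMIs of oligodendrocyte-like cells, the only class of the 9 in which all CO libraries were above NC for this share. Among the monocarboxylate transporters Slc16a1, Slc16a3 and Slc16a7, Slc16a1 held 95.5% (94.7 to 96.2) in NC and 89.1% (87.6 to 90.5) in CO in endothelial-like cells and 97.4% (96.8 to 97.9) in NC and 96.1% (95 to 97.0) in CO in oligodendrocyte-like cells. In microglia-like cells Slc16a7 held 67.4% (65.7 to 69.1) in NC and 64.4% (62.6 to 66.1) in CO, while Slc16a3 had 7.60%, 7.82% and 8.55% in NC and 17.1%, 14.4% and 17.4% in CO, higher in every CO library.

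**Figure D5:**
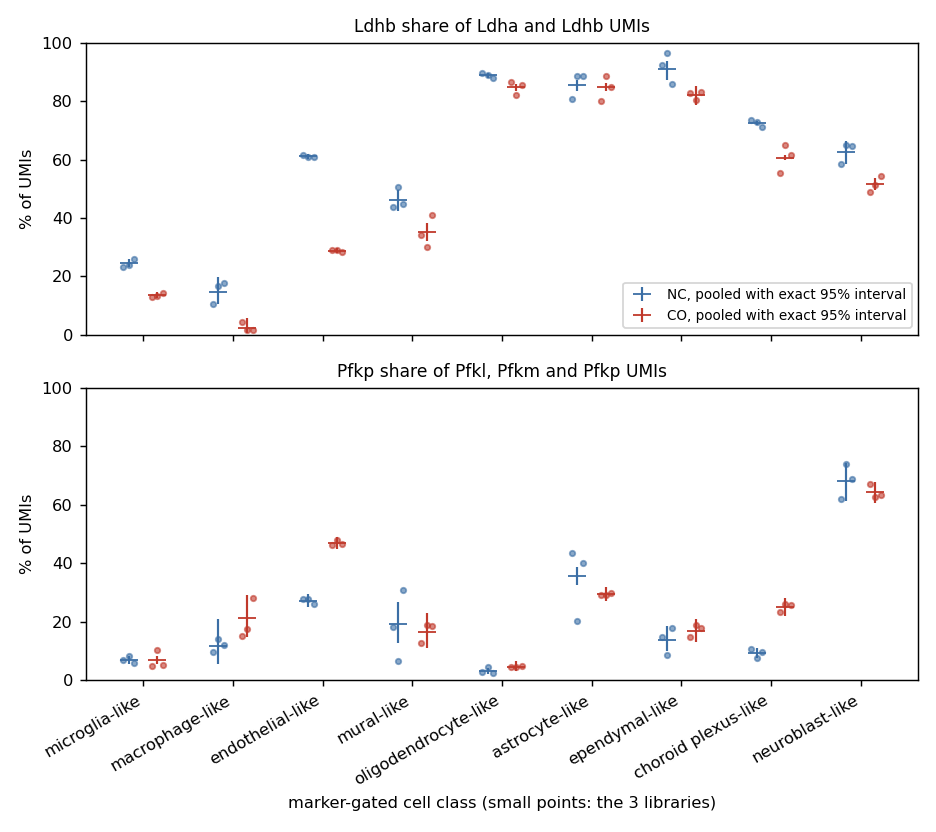
Share of Ldhb in the UMIs of Ldha and Ldhb, and of Pfkp in those of Pfkl, Pfkm and Pfkp, in percent, for 9 cell classes. Horizontal marks with vertical bars are the group with its exact 95% interval (counting error only) and small points are libraries. The Ldhb share is lower in CO in all 9 classes shown, most in endothelial-like cells, and the Pfkp share is higher in endothelial-like and choroid plexus-like cells.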

How the data were processed

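For each of 6 libraries the authors deposited UMI counts by gene and cell barcode, with no normalization. Per the submitters' processing notes, the authors used Cell Ranger and the Rnor_6.0 build. The version, the rules for shared reads and any filter on cells were not given in the sources used here.

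Barcodes under 500 UMIs or under 200 genes were left out. A cell was assigned to a class with at least 3 of its markers detected and at least 3 times the marker UMIs of the next class. Of 178 markers listed, 163 were in the files and 133 were used, those at least 5 times higher in their class than in any other class of at least 100 cells (erythroid-like left out) in a first pass, and under 100 CPM in the class where they were lowest. These thresholds were set after seeing the data, without the values of the genes followed here. Cells of mixed markers fell out by this rule, and no other removal of doublets was made. Scrublet's own calls numbered 157, 208 and 229 in NC and 2, 108 and 2 in CO, and the highest 6% of its scores were left out only as an alternative.

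Counts were summed per class and library and scaled with TMM factors (edgeR 4.0.16). Ratios of the group sums carry exact binomial intervals (scipy 1.17.1), and the intervals and the edgeR and DESeq2 fits were tested on simulated data. No test between the groups is used in the results, since each group was counted as 1 sample. The edgeR quasi-likelihood fit with libraries as replicates stands in the closing section, and its p-values would measure only the spread between libraries, which may be technical. Leiden clusters (scanpy 1.11.5, resolution 1, 46 clusters) served as an alternative to the gate. For shares of cells with a UMI, each cell was thinned to 2000 UMIs.

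The genes and lists were chosen with earlier results of these data known. Library values are given for every gene that was called in a class and, where a result turned on them, for others. Genes of other lists are named only where at least 2-fold apart. One such gene is not reported here.

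Alternatives were total counts in place of TMM factors, no minimum level, cells of at least 2000 UMIs, a stricter gate (4 markers, 5 times the next class), Leiden clusters, the highest Scrublet scores left out, each library left out in turn, and, for the fit with replicates, a block for the replicate number and DESeq2 1.42.0.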

Additional observations from a re-analysis of the deposited data

Results flagged for a closer look

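Pfkfb4 was higher in every CO library of astrocyte-like cells and lower in every CO library of ependymal-like cells. Its log2 ratios of 0.83 (0.35 to 1.33) and -1.72 (-2.54 to -0.95) differed by 2.55. Pgm1 was higher in every CO library of macrophage-like cells and lower in every CO library of ependymal-like cells. Its log2 ratios of 0.73 (0.06 to 1.42) and -1.59 (-2.17 to -1.04) differed by 2.33. The value in macrophage-like cells rested on 32 UMIs in NC and 50 in CO, and its call held under 6 of the 12 alternatives. The opposite direction of all libraries drew attention to these genes, and the difference was not tested for either.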

How the results depend on the processing

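The direction of 34 of the 36 calls held under all 12 alternatives. The exceptions were Gpd1 in astrocyte-like cells (-0.97 with Leiden clusters) and Hk2 in neuroblast-like cells (-0.73 with the highest Scrublet scores left out), and the cause was not tested. The counts of calls below stand without the share of all genes under each setting, so they show only how the calls moved. With total counts, 2 genes were lower in endothelial-like cells and the median log2 ratio was 0.29 there. The median log2 ratio of the members in microglia-like cells was -0.00882 with total counts. With no minimum level, which admits more genes, 43 pairs were higher and 18 lower, and in endothelial-like cells 4 genes were lower and the median was 0.24. Leiden clusters gave 13 pairs lower. With the highest Scrublet scores left out, 2 genes were lower in endothelial-like cells, and with the stricter gate the median in microglia-like cells was 0.088. Leaving out 1 library at a time gave 28 to 35 pairs higher and 5 (without NC replicate 1) to 9 lower, 6 to 8 genes higher and 1 lower in endothelial-like cells, and medians of 0.36 to 0.41 in endothelial-like, 0.21 to 0.33 in astrocyte-like and 0.022 to 0.11 (without CO replicate 2) in microglia-like cells.

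With libraries as replicates, edgeR's quasi-likelihood test at an adjusted p under 0.05 called 19 of 36 tested genes of the list in endothelial-like cells. Of all genes tested in that class, 38.4% were called. It called 12 of 36 in microglia-like (32.7% of all genes) and 10 of 35 in choroid plexus-like cells (24.0%). Counts were 8 of 36 in oligodendrocyte-like (22.8%), 2 of 31 in ependymal-like (11.4%) and 2 of 32 in macrophage-like cells (8.91%). They were 2 of 33 in mural-like (7.34%), 1 of 35 in neuroblast-like (5.22%) and 1 of 35 in astrocyte-like cells (2.71%). Same-numbered libraries of the groups were not treated as paired in this fit. The correlations of their deviations ran from -0.073 to 0.108 over 3 large classes. Each library was closest to its own number in oligodendrocyte-like cells, as were all but NC replicate 3 in microglia-like cells. In endothelial-like cells no library was. Of all genes tested, the replicate block called 1.48% (astrocyte-like) to 38.0% (endothelial-like), and DESeq2 3.43% to 32.3% in the same classes. With the block the counts for the list were 19, 12, 10, 7, 2, 3, 2, 0 and 0 in the same order of classes as above. The block's shares of all genes in that order were 38.0%, 32.5%, 22.8%, 21.9%, 11.5%, 8.60%, 7.33%, 4.45% and 1.48%. With DESeq2 the counts for the list were 19, 11, 9, 6, 1, 1, 0, 0 and 1. Its shares of all genes were 32.3%, 25.5%, 20.3%, 18.5%, 7.09%, 5.79%, 4.52%, 3.93% and 3.43%. Where the counts for the list were 0, 8 genes in neuroblast-like and 14 in astrocyte-like cells had an unadjusted p under 0.05 with the block. With DESeq2 these were 3 in mural-like and 7 in neuroblast-like cells. No share of all genes at this unadjusted threshold stands beside them, so nothing is concluded from them.

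Depth limits the small classes most. Ependymal-like cells had 133 and 166 cells, and genes near 16 CPM rested on some 30 counts in macrophage-like and mural-like cells. No value here measures the spread between rats.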

Other observations

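Some genes of the list under the minimum level differed between the groups, and not all are given here. In neuroblast-like cells, with 3011523 UMIs in NC and 9663300 in CO, Pkm had 28 UMIs in NC and 194 in CO. Its log2 ratio was 1.11 (0.54 to 1.74). Pdk1 stood at 1.08 (0.49 to 1.72) on 27 and 183 UMIs, and Pfkfb4 at -1.27 (-1.80 to -0.74) on 55 and 73. No library of the groups overlapped for any of them. Slc16a3, a lactate exporter, had 43 UMIs in NC and 137 in CO in endothelial-like cells, a log2 ratio of 1.91 (1.40 to 2.44). In microglia-like cells it had 244 UMIs in NC and 471 in CO, with 7.83, 9.09 and 8.75 CPM in NC and 17.1, 12.8 and 16.5 CPM in CO, every CO library above NC, and a log2 ratio of 0.86 (0.63 to 1.09). Choroid plexus-like cells had 119 UMIs in NC and 213 in CO of Pfkp, a log2 ratio of 1.42 (1.09 to 1.76), and 78 UMIs in NC and 178 in CO of Gpd1, a log2 ratio of 1.77 (1.38 to 2.18). Pfkfb3 went the other way there, with 78 UMIs in NC and 9 in CO and a log2 ratio of -2.53 (-3.71 to -1.53). Macrophage-like cells had 37 UMIs in NC and 4 in CO of Ldhb and 32 UMIs in NC and 6 in CO of Gpd1. Gpd1 and Ldhb are abundant in oligodendrocyte-like cells, whose summed markers stood at 132 to 164 CPM in NC and 79.3 to 103 CPM in CO in macrophage-like cells. Their part in these counts was not tested.

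Slc25a13, an aspartate-glutamate carrier of the malate-aspartate shuttle that is not on the list, was called higher in 5 of the 9 classes. It stood at 58.6, 66.7 and 65.8 CPM in NC and 211, 181 and 183 CPM in CO in macrophage-like cells, a log2 ratio of 1.58 (1.29 to 1.88), and at 3.49, 14.2 and 9.20 CPM in NC and 59.5, 37.4 and 29.4 CPM in CO in mural-like cells, a log2 ratio of 2.29 (1.49 to 3.19). No library of the groups overlapped in either class. Pdk4 was lower in macrophage-like cells, with a log2 ratio of -1.36 (-1.89 to -0.86), and higher in astrocyte-like cells at 2.13. The difference between these classes was not tested. Further genes at least 2-fold apart in macrophage-like cells were Pdhx (1.26), Pdp2 (1.34) and Cs (-1.10), and in mural-like cells Pdp1 (1.17), Pgm2 (-1.78), Pdpr (-1.59) and Me3 (-1.01), as log2 ratios on fewer than 100 UMIs in each group.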
